A study of Mus musculus with 6 samples.

Results

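The genes described here are the transcriptional coactivators Yap1 and Wwtr1 (Taz), the 4 Tead DNA-binding factors through which they act, and 4 of their well-known target genes, Ctgf, Cyr61, Ankrd1 and Amotl2. They were picked by name and matched to the rows of the table of normalized counts (gene counts divided by a factor for each library), where Ctgf is written Ccn2 and Cyr61 is written Ccn1. All 10 genes were found among 25701, and all 10 were among the 15372 genes tested. RNA was sequenced from CP cells, the cardiac progenitor stage of a cardiomyocyte differentiation of mouse ESCs, in 3 libraries labelled Zhx1-KO and 3 libraries of 46C-Ctrl. Both groups come from 46C, mouse ESCs in which green fluorescent protein reports on Sox1, and carry no other allele or agent in the labels. According to the study's methods, the Zhx1-KO line was made with Cas9 and a pair of guides, one at the start and one at the stop of Zhx1. The sources used here do not say whether it is 1 clone. The study's methods speak in general of independent experiments but do not say whether these libraries came from separate differentiations, so p-values measure only the spread between libraries, which may be technical. The design names the target genes of Zhx1 and its partner hnRNPA1 at the CP stage as the question behind the comparison.

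Yap1 and Wwtr1 do not bind DNA themselves. When the Hippo kinases phosphorylate them, they are held in the cytoplasm by 14-3-3 proteins or degraded, and when the kinases are quiet, for instance in spread cells under tension, they enter the nucleus and bind a Tead factor that sits on a short DNA motif. In the developing heart this pair is known for driving the proliferation of cardiomyocytes, and transcript levels of Ctgf, Cyr61, Ankrd1 and Amotl2 are common readouts of its activity. Phosphorylation and location of the proteins were not measured here.

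The short motif that Tead proteins bind has the core CATTCC, or GGAATG when read on the other strand. RefSeq promoter windows on GRCm38.p6, from 250 bases before to 50 bases after each start, were at hand for 7 of the 10 genes, and 6 of the 7 held the core on either strand (Tead2 did not). Among all genes with such a window, 16.6% held it, and among all 32851 windows 14.7% did. A match of 6 letters is a description of the sequence and not a site shown to be bound. The 250 bases before the start of Ccn1, on the minus strand at chr3:145649986-145650235, are shown because Ccn1 is the target with the highest level per kilobase in these cells. Capitals mark the Tead core, whose first base lies at position -103, and the TATA motif (TATAAA) at -25. The TATA letters occur on either strand in 13.6% of all windows.
Ccn1: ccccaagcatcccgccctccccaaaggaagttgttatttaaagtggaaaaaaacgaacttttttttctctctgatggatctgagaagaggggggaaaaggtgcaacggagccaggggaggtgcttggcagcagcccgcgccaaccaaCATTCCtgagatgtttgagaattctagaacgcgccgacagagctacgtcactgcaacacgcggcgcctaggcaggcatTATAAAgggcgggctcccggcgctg

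For the other genes a window of 30 bases around the core is enough to compare the flanks, with the core again in capitals and each sequence given on the strand of its gene. Amotl2 had 1 match, with its first base at -65 (chr9:102717727-102717756). Ankrd1 had 2, at -123 (chr19:36119950-36119979) and at -210 (chr19:36120037-36120066). Yap1 had a match at -141 (chr9:8004720-8004749) and Wwtr1 at -136 (chr3:57576029-57576058). Tead3 had 4 matches over its 3 annotated starts, and the one shown (chr17:28350706-28350735) begins at -123 and has a further match, left in lower case, begin at -114.
Amotl2: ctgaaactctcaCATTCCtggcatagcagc
Ankrd1 at -123: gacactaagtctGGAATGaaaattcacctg
Ankrd1 at -210: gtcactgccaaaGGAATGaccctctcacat
Yap1: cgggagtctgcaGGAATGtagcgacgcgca
Wwtr1: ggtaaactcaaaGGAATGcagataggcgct
Tead3: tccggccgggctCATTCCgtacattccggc

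**Figure D1:**
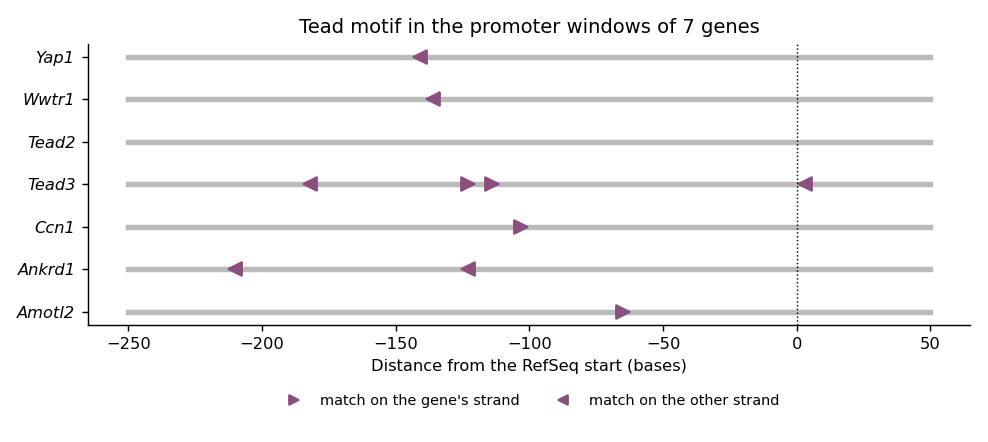
Position of each match to the 6-letter Tead core in the promoter windows of 7 genes, as distance in bases from the RefSeq start (for Tead3, from the start of the window that holds the match). Triangles that point right lie on the gene's strand and those that point left on the other strand. The matches of Amotl2, Ccn1, Ankrd1, Wwtr1 and Yap1 lie between -210 and -65, Tead3 also has a match at 3, and the window of Tead2 has none.

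Across the 10 genes, 9 had fallen in Zhx1-KO relative to 46C-Ctrl at a Benjamini-Hochberg adjusted p under 0.05 in limma's test on log2(normalized count + 1), and 0 had risen. Of all genes tested, 26.4% were called lower and 25.6% were called higher, so calls in both directions were common in this comparison. No member was higher at an unadjusted p under 0.05 either, since all 10 log2 fold changes were negative. The members' median log2 fold change was -0.67, against 0.01 for all genes tested. Of the 10 genes, 3 (Tead4, Ccn2 and Ccn1) were lower by at least 2-fold, against 7.85% of all genes tested. In 9 of 10, every Zhx1-KO library lay below every 46C-Ctrl library, against 30.4% of all genes tested. The members were chosen with earlier results of these data known, so these comparisons with all genes are a description and not a test. The 2 genes with the strongest falls were a Tead factor and a target, Tead4 and Ccn2, while Wwtr1 (81.4%), Yap1 (87.1%) and the most abundant Tead factor, Tead2 (92.0%), kept means near those of control.

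**Figure D2:**
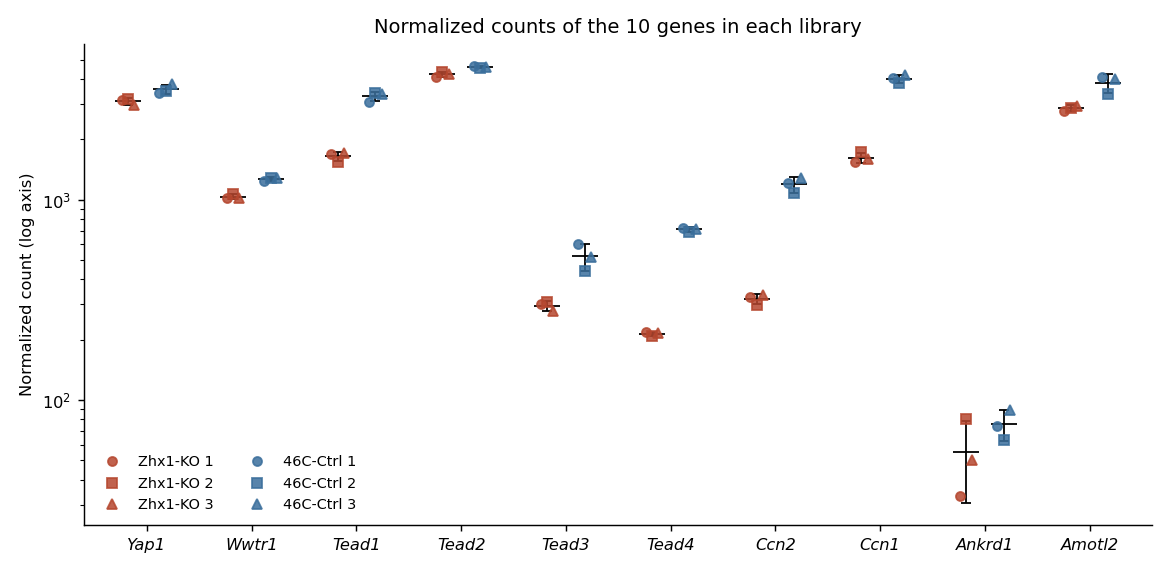
Normalized counts of the 10 genes in each library on a log axis, with the libraries labelled Zhx1-KO left of 46C-Ctrl for each gene. Symbols are libraries, the horizontal bars are group means and the whiskers are the SD (n = 3 each). The groups are apart for every gene but Ankrd1, where Zhx1-KO 2 (80.9) lies above 46C-Ctrl 1 (74.1) and 46C-Ctrl 2 (63.1).

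Depth in reads is not known from the normalized values, but each library's sum in units of its smallest step, a measure that would equal its counts if that step were 1 read, was 13769967 to 15940874 in libraries labelled Zhx1-KO and 13801517 to 14811001 in 46C-Ctrl. 46C-Ctrl 2 stood apart, with 2.77% of its signal in mitochondrial genes against 1.72% to 1.87% in the other 5 libraries, and leaving it out changed the call of no member. Zhx1 itself, a zinc finger and homeobox gene on chromosome 15, had normalized counts of 225, 325 and 308 in libraries labelled Zhx1-KO and of 460, 181 and 457 in 46C-Ctrl. The groups overlapped because of 46C-Ctrl 2, and the log2 fold change was -0.25 (SE 0.35, adjusted p = 0.579 in limma). Without 46C-Ctrl 2 it was -0.70 (adjusted p = 0.0113 in limma), while without 46C-Ctrl 1 it was -0.03 (adjusted p = 0.958 in limma). Leaving out each library in turn gave -0.70 to -0.03, and Zhx1 passed the threshold in 1 of 14 alternative settings. The study itself reports the knockout in ESCs from mRNA and protein levels of Zhx1 and from PCR of the deletion.

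Among the coactivators, both fell by a small amount. Yap1 (chromosome 9, 7931999 to 8004596 in GRCm38) had normalized counts of 3138, 3181 and 2961 in libraries labelled Zhx1-KO, against 3405, 3477 and 3775 in 46C-Ctrl. The groups did not overlap, although the highest Zhx1-KO library and the lowest 46C-Ctrl library were close. The mean was 3094 ± 117 in Zhx1-KO, 87.1% of the 3553 ± 196 in 46C-Ctrl (SD, n = 3 each), and the log2 fold change was -0.20 (SE 0.06, adjusted p = 0.0198 in limma). This call was near the threshold. It was lost without Zhx1-KO 3 (adjusted p = 0.0689) and without 46C-Ctrl 3 (adjusted p = 0.0677), both in limma.

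Wwtr1 (chromosome 3, 57455649 to 57575910), which encodes Taz, the close relative of Yap1, had normalized counts of 1016, 1068 and 1025 in libraries labelled Zhx1-KO and of 1241, 1288 and 1289 in 46C-Ctrl. All 3 Zhx1-KO libraries lay clearly under all 3 of 46C-Ctrl. Its log2 fold change was -0.30 (SE 0.05, adjusted p = 0.0023 in limma), a mean of 81.4% of control. The balance of the coactivators was nearly the same in the groups. On the scale of normalized counts per kilobase of exon, Yap1 made up 60.6% ± 0.806 of the sum of Yap1 and Wwtr1 in Zhx1-KO and 59.0% ± 1.04 in 46C-Ctrl (SD, n = 3 each), and the groups overlapped (exact permutation test, two-sided, p = 0.2). With 3 libraries against 3, no exact test can go below p = 0.1.

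The 4 Tead genes differed widely in how far they fell. Tead1 (chromosome 7, 112679318 to 112906807), a factor needed for growth of the heart wall in mouse embryos, had normalized counts of 1695, 1542 and 1706 in libraries labelled Zhx1-KO against 3082, 3404 and 3375 in 46C-Ctrl. The groups were far apart, with a Zhx1-KO mean of 50.1% of control and a log2 fold change of -0.996 (SE 0.06, adjusted p = 1.4e-05 in limma). Tead2 (chromosome 7, 45215753 to 45233644), a Tead factor of early embryos, had 4095, 4353 and 4220 in libraries labelled Zhx1-KO against 4653, 4522 and 4602 in 46C-Ctrl. Its groups were apart but close, at 92.0% of control, and its log2 fold change of -0.12 (SE 0.04) only just passed (adjusted p = 0.0488 in limma). Leaving out any 1 library other than 46C-Ctrl 2 took the adjusted p of Tead2 in limma to between 0.0571 and 0.151, so this call rests on having all of those libraries.

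Tead3 (chromosome 17, 28331671 to 28350817), a family member best known from placenta, had normalized counts of 303, 308 and 277 in libraries labelled Zhx1-KO and of 605, 442 and 520 in 46C-Ctrl. The 46C-Ctrl libraries spread more widely than those of Zhx1-KO, with 46C-Ctrl 2 the lowest, yet the groups did not overlap. The log2 fold change was -0.81 (SE 0.12, adjusted p = 0.00105 in limma), at 56.7% of control. Tead4 (chromosome 6, 128224288 to 128300823), known for starting the trophectoderm of the mouse blastocyst and for roles in muscle differentiation, had 218, 208 and 216 in libraries labelled Zhx1-KO against 723, 692 and 718 in 46C-Ctrl. Libraries agreed closely within each group and the groups were far apart. Its mean of 214 ± 4.93 in Zhx1-KO was 30.1% of the 711 ± 16.8 in 46C-Ctrl (SD, n = 3 each), with a log2 fold change of -1.73 (SE 0.07, adjusted p = 2.1e-06 in limma). Of all genes tested, 3.95% had a log2 fold change as low as that of Tead4 or lower.

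Tead4 lies in a stretch of chromosome 6 in which many genes were lower. The bounds of this stretch, 110 to 140 Mb, come from earlier results of these data and have no test of their own. Of 216 genes tested there, 123 were called lower and 21 higher, with a median log2 fold change of -0.58. Of the 524 other genes tested on the chromosome, 144 were lower and 135 higher, with a median of 0.02. Over all genes tested, 26.4% were called lower and 25.6% higher. Of the 216, 20 had a log2 fold change as low as Tead4's or lower, Tead4 included. Of the 20 other genes tested within 1 Mb of Tead4, 9 were lower and 3 higher, with a median of -0.46. The part of this stretch in the value of Tead4 was not tested.

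Added up per kilobase of exon, the Tead genes gave 1107 ± 20.5 normalized counts per kilobase in Zhx1-KO and 1477 ± 20.3 in 46C-Ctrl (SD, n = 3 each), so that the summed level in Zhx1-KO was 75.0% of control. Because the members fell by different amounts, their shares of this sum differed as well. Tead2 held 79.7% ± 0.975 of it in Zhx1-KO and 65.0% ± 0.294 in 46C-Ctrl. Tead4 held 5.37% ± 0.219 in Zhx1-KO and 13.4% ± 0.135 in 46C-Ctrl. Tead1 held 10.98% ± 0.776 in Zhx1-KO and 16.4% ± 1.04 in 46C-Ctrl, and Tead3 held 3.99% ± 0.231 in Zhx1-KO and 5.26% ± 0.759 in 46C-Ctrl (SD, n = 3 each for all shares). In none of the 4 did the groups overlap, and each exact two-sided permutation test gave p = 0.1, the smallest possible. The 4 shares are parts of the same sum, so they are not separate results. How often shares in other gene families do not overlap was not computed. Tead2 thus took a larger share in Zhx1-KO although its own level was not higher there.

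**Figure D3:**
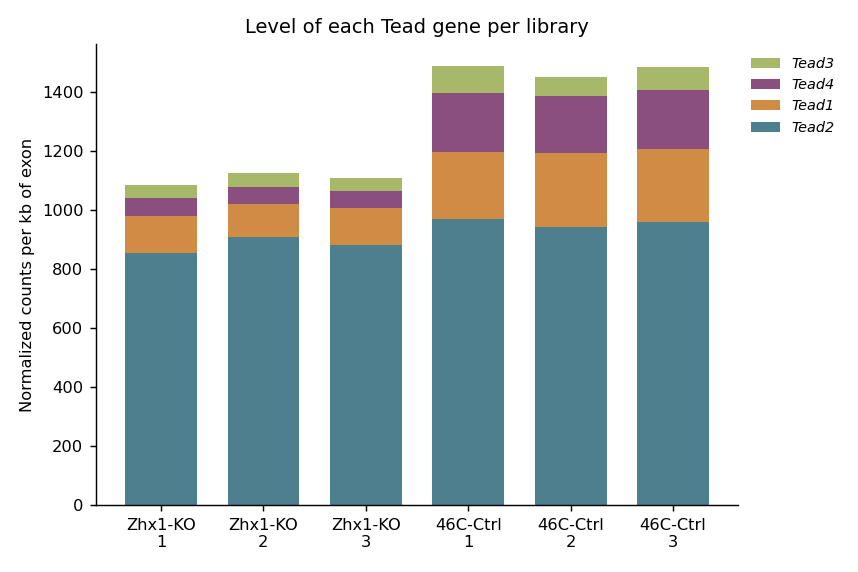
Level of each Tead gene in each library, in normalized counts per kilobase of exon, stacked so that the bar's height is the summed Tead level, with the libraries labelled Zhx1-KO left of 46C-Ctrl. The Tead2 segment is of like height in all 6 libraries, while those of Tead1, Tead3 and Tead4 are smaller in Zhx1-KO.

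Ratios between pairs of Tead genes in the same library need no such sum. The log2 ratio of Tead4 to Tead2 normalized counts averaged -4.30 ± 0.08 in Zhx1-KO and -2.69 ± 0.02 in 46C-Ctrl, and that of Tead1 to Tead2 averaged -1.36 ± 0.12 in Zhx1-KO and -0.48 ± 0.10 in 46C-Ctrl (SD, n = 3 each). The log2 ratio of Tead4 to Tead3 was -0.47 ± 0.10 in Zhx1-KO and 0.46 ± 0.19 in 46C-Ctrl, so that Tead4 had fewer normalized counts than Tead3 in every Zhx1-KO library and more in every 46C-Ctrl library. This switch depends on the length used. Per kilobase of exon, the level of Tead4 was above that of Tead3 in both groups. With the length of the longest transcript instead, the switch was seen again. Tead4 then held 4.45% of the summed Tead level in Zhx1-KO and Tead3 held 5.50%, against 11.2% and 7.33% in 46C-Ctrl. Tead1 and Tead3 kept a ratio that did not differ beyond its spread (2.47 ± 0.15 in Zhx1-KO and 2.66 ± 0.30 in 46C-Ctrl, exact p = 0.4). Of 8 such ratios computed among the coactivators, Tead genes and Ccn genes, 6 did not overlap between groups, each with an exact p of 0.1 and an adjusted p of 0.133. Several of these ratios share a Tead gene, so they are not separate results. The share of other gene pairs without overlap was not computed.

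The matricellular targets were among the members that fell most. Ccn2 (Ctgf, chromosome 10, 24595442 to 24598683), a secreted protein of the matrix that promotes its deposition, had normalized counts of 328, 299 and 336 in libraries labelled Zhx1-KO and of 1217, 1077 and 1290 in 46C-Ctrl. The highest Zhx1-KO library lay far below the lowest 46C-Ctrl library. The log2 fold change was -1.89 (SE 0.09, adjusted p = 3.4e-06 in limma), at 26.9% of control, and 3.43% of all genes tested had a log2 fold change as low or lower. An antisense transcript, Gm15270, overlaps 665 exon bases of Ccn2, and 17.2% of the 50-base stretches of Ccn2 also occur in it. Gm15270 had a mean of 1.97 normalized counts in Zhx1-KO and 1.03 in 46C-Ctrl, and the sources used here do not say whether counting took the strand into account.

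Ccn1 (Cyr61, chromosome 3, 145646976 to 145649981), a relative of Ccn2 that signals through integrins and is needed for heart septa and vessels in mouse embryos, had normalized counts of 1541, 1728 and 1598 in libraries labelled Zhx1-KO and of 4058, 3821 and 4194 in 46C-Ctrl. No library came near the other group. The log2 fold change was -1.31 (SE 0.06, adjusted p = 3.4e-06 in limma), at 40.3% of control. Ccn2 had the lower log2 fold change of the pair, and its share of their summed level per kilobase was 12.3% ± 1.21 in Zhx1-KO and 17.3% ± 0.641 in 46C-Ctrl (SD, n = 3 each, no overlap, exact p = 0.1).

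Amotl2 (chromosome 9, 102716672 to 102733418) encodes a junction protein that binds Yap and Taz and keeps them from the nucleus, and is itself a target of theirs. It had normalized counts of 2762, 2878 and 2945 in libraries labelled Zhx1-KO and of 4112, 3369 and 4006 in 46C-Ctrl. The groups did not overlap, and 46C-Ctrl 2 was the lowest of its group. The mean in Zhx1-KO was 74.7% of control, with a log2 fold change of -0.41 (SE 0.08, adjusted p = 0.00324 in limma).

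Ankrd1 (chromosome 19, 36111961 to 36120099), an ankyrin repeat protein of the sarcomere and nucleus of heart muscle, was the least abundant member. It had normalized counts of 33.3, 80.9 and 50.2 in libraries labelled Zhx1-KO and of 74.1, 63.1 and 89.6 in 46C-Ctrl, and the groups overlapped. The log2 fold change was -0.54 with a 95% interval from -1.30 to 0.23 (SE 0.33, adjusted p = 0.209 in limma), so that neither a fall to well under control nor no difference lies outside it. Zhx1-KO 2 decided the call: without it the log2 fold change was -0.86 (adjusted p = 0.0447 in limma), and without Zhx1-KO 1 it was -0.23. The 2 matches to the Tead core in the promoter of Ankrd1, shown above, stand beside the smallest counts of all the members.

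**Figure D4:**
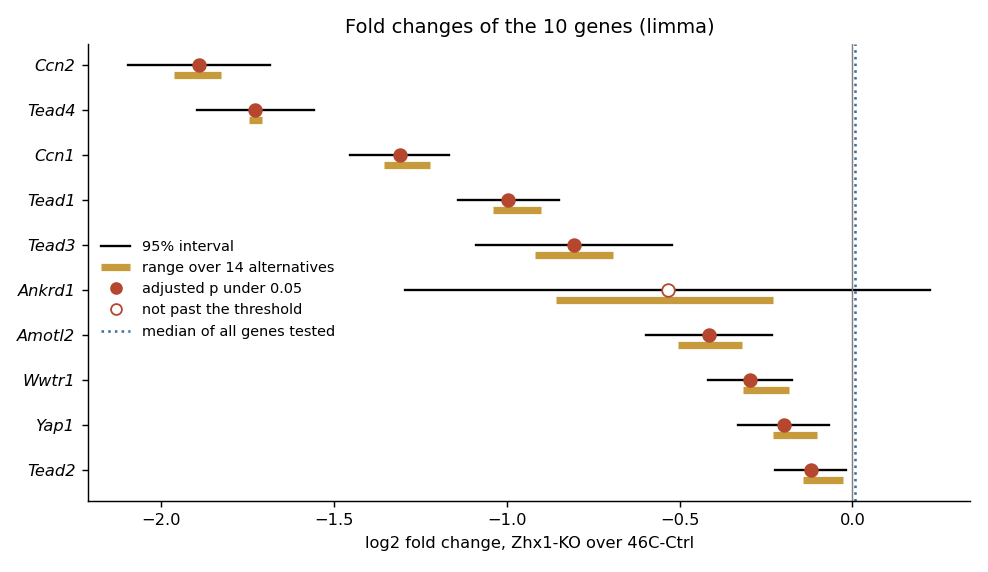
Log2 fold change of each member, Zhx1-KO over 46C-Ctrl, on the log2(normalized count + 1) scale, ordered with the largest falls at the top. Circles are estimates and black lines their 95% intervals, yellow bars span the estimates over 14 alternative settings, and the dotted line is the median of all genes tested (0.01). Ccn2 (-1.89) and Tead4 (-1.73) lie farthest from it, and only the interval of Ankrd1 reaches above 0.

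Ordered by level per kilobase of exon, the members kept much the same ranks in both groups, apart from Ccn1 and Ccn2. These ranks depend on the length used, which for Yap1 was 9257 bases of exon against 5282 in its longest transcript. Ranks by the longest transcript are not given here. In Zhx1-KO, normalized counts per kilobase of exon ran from 882 for Tead2 and 804 for Ccn1, which overlapped each other, through 455 for Amotl2, 334 for Yap1 and 217 for Wwtr1, to 121 for Tead1 and 112 for Ccn2, which also overlapped, and then 59.4 for Tead4, 44.1 for Tead3 and 18.98 for Ankrd1. In 46C-Ctrl, the same scale had Ccn1 first at 1993, then Tead2 at 959, Amotl2 at 609, Ccn2 at 418 and Yap1 at 384, the last pair overlapping, followed by Wwtr1 at 266, Tead1 at 242, Tead4 at 198, Tead3 at 77.8 and Ankrd1 at 26.2. Per kilobase, Ccn1 thus stood below Tead2 in every Zhx1-KO library (although their ranges overlapped) and above it in every 46C-Ctrl library, while Ccn2 stood below Wwtr1 in Zhx1-KO and above both Wwtr1 and Tead1 in 46C-Ctrl.

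The kinases and adaptors that act on Yap and Taz were lower more often than higher as well. Of 17 core kinases and adaptors, 11 fell, 2 rose and 4 did not pass, with a median log2 fold change of -0.24 against 0.01 for all genes tested. Over all genes tested, 26.4% were called lower and 25.6% higher, and the same shares apply to the lists that follow. Lats2, a kinase that phosphorylates Yap and is itself a Yap target, had 489, 492 and 404 normalized counts in libraries labelled Zhx1-KO and 816, 736 and 833 in 46C-Ctrl (log2 fold change -0.79, adjusted p = 0.00039 in limma). Mob1b, an activating partner of the Lats kinases, fell as well (log2 fold change -0.77), as did Map4k3 (-0.82), a kinase that can act in place of the Mst kinases, and Stk4 (-0.44), one of the Mst kinases itself. Map4k2 and Map4k1 rose, with log2 fold changes of 0.83 and 0.63.

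Of 20 upstream regulators, 12 fell, 3 rose and 5 passed in neither direction, and the median log2 fold change was -0.30. Those that fell with the smallest adjusted p were Frmd6, a membrane-linked scaffold (log2 fold change -1.16), Crb2 and Crb3, which set apical polarity (-1.41 and -1.27), and Fjx1, a kinase of cadherin domains (-1.07). Nf2, the scaffold Merlin that activates the Lats kinases, rose (0.35), as did the giant cadherins Fat4 (0.54) and Dchs2 (0.86). Nf2 lies on chromosome 11, where 675 of 1187 genes tested were higher and 114 lower, with a median log2 fold change of 0.42. Of all genes tested, 25.6% were called higher and 26.4% lower. Its other genes in the pathway lists were Ywhae, which rose, Igfbp3 and Myocd, which fell, and Wwc1, Taok1 and Mink1, which did not pass. The part of this chromosome in the value of Nf2 was not tested.

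Proteins that bind Yap and Taz or take their place on Tead moved in both directions. Of 13 tested, 7 fell, 2 rose and 4 did not pass, with a median log2 fold change of -0.22. Amot, the relative of Amotl2 at tight junctions, fell to 3706 ± 187 normalized counts in Zhx1-KO against 8812 ± 35.5 in 46C-Ctrl (SD, n = 3 each, log2 fold change -1.25), while Amotl1 had 2353 ± 61.2 in Zhx1-KO and 2300 ± 112 in 46C-Ctrl and did not pass. Sfn, the 14-3-3 protein of epithelia, had the largest fall of the list, to 93.0 ± 3.89 in Zhx1-KO against 1274 ± 111 in 46C-Ctrl, and Ywhag, another 14-3-3 protein, fell as well (log2 fold change -0.62), whereas Ywhae rose (0.51) and is a gene of chromosome 11. Among the Vestigial-like cofactors, which compete with Yap for Tead, Vgll2 of muscle had 1454, 1464 and 1448 normalized counts in libraries labelled Zhx1-KO and 355, 289 and 334 in 46C-Ctrl (log2 fold change 2.16). Vgll4 (-0.88) and Vgll3 (-0.94) fell. Vgll4 lies in the stretch of chromosome 6 described for Tead4, and Vgll3 lies on chromosome 16.

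A signature of Yap and Taz targets drawn up in human cancer cells held 22 tested genes, 4 of them members. Of the 18 others, 11 fell, 4 rose and 3 did not pass. Lats2 and Fjx1, which fell, and Ptpn14, which did not pass, were also counted in the lists above. Arhgef17, a guanine nucleotide exchange factor (log2 fold change -1.05), Igfbp3, which binds insulin-like growth factors (-1.06), Tgfb2, a transforming growth factor (-0.62), and Fjx1 had the smallest adjusted p among those that fell. Nuak2, a kinase related to Ampk, rose (log2 fold change 1.87), as did Dock5, an activator of Rac (0.95), the transcription factor Foxf2 (1.32) and the stress gene Gadd45a (0.44). The signature thus had called genes in both directions, with the falls more frequent. Of all genes tested, 26.4% were called lower and 25.6% higher.

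**Figure D5:**
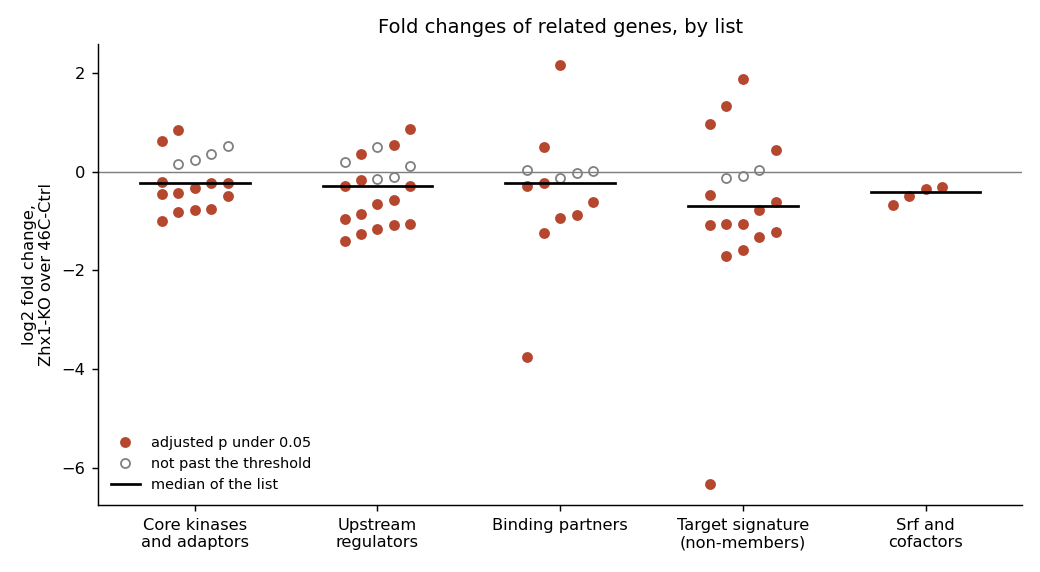
Log2 fold changes of the other pathway genes, Zhx1-KO over 46C-Ctrl, by list, with members left out. Each circle is a gene, filled where the adjusted p in limma was under 0.05, and black lines are medians of the genes drawn. Most lists have filled circles on both sides of 0, with Vgll2 (2.16) and Nuak2 (1.87) the highest, Ccdc80 (-6.34) the lowest, and all 4 genes of the Srf list below 0.

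Markers of several cell types moved along with the members, and in bulk RNA fewer cells of a type and less RNA per cell cannot be told apart. Beside each count below stand the 26.4% of all genes tested called lower and the 25.6% called higher. Smooth muscle markers fell in 4 of 5 genes, with a summed level of 4385 to 4607 normalized counts in libraries labelled Zhx1-KO and 14953 to 15792 in 46C-Ctrl. Endoderm and simple epithelium markers fell in 9 of 10, with sums of 16044 to 17457 in Zhx1-KO and 40559 to 45799 in 46C-Ctrl. The keratins Krt8 (mean 7222 in Zhx1-KO and 24023 in 46C-Ctrl) and Krt18 (6531 in Zhx1-KO and 12691 in 46C-Ctrl) made up most of these sums. Foxa2 was the gene that did not pass (660 in Zhx1-KO and 717 in 46C-Ctrl). Cardiac progenitor markers fell in 6 of 7 (1173 to 1274 in Zhx1-KO and 9106 to 10274 in 46C-Ctrl). Of 5 trophectoderm markers tested, Cdx2, Tfap2c and Hand1 fell, while Krt7 (234 normalized counts in Zhx1-KO and 200 in 46C-Ctrl) and Ascl2 (39.8 in Zhx1-KO and 40.4 in 46C-Ctrl) did not pass. Hand1 is also in the cardiac progenitor list and made up most of the trophectoderm sum in 46C-Ctrl, with a mean of 198 in Zhx1-KO and 5774 in 46C-Ctrl. Without Hand1 the trophectoderm sum was 303 to 325 in Zhx1-KO and 548 to 720 in 46C-Ctrl, and the cardiac progenitor sum was 944 to 1088 in Zhx1-KO and 3701 to 4238 in 46C-Ctrl. Cardiomyocyte markers were mixed, since 7 of 11 rose and the other 4, Tnnt2, Tnni1, Ttn and Ryr2, fell (log2 fold changes -0.55, -2.02, -1.04 and -1.48). Of the endothelial and of the fibroblast and matrix markers 6 of 8 each rose, and of the neural markers 5 of 6, but each list also had 1 gene that fell, namely Flt1 (-2.32), Col3a1 (-1.69) and Nes (-0.76). No defining marker of the falling lists was at 0 in a whole group. The part of these cell types in the values of the members was not tested.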

How the data were processed

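The authors sequenced polyA RNA from 6 libraries, trimmed reads with cutadapt 1.18 and aligned them to GRCm38 with HISAT2 2.1.0, using GENCODE M19. StringTie 1.3.4d, Cufflinks and DESeq2 are also named in the submitters' processing notes. Deposited was a signal for each gene, namely its read count after the authors' division by a factor for the library. Which program counted the reads is not stated in the paper or labels. Each value was a whole multiple of a step per library (0.880 to 1.05, 100% within 0.01 of a step). Since 2 steps lie near 1, whole reads were not taken as recovered and no count test was run.

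The 15372 genes whose mean over the libraries reached 10 entered limma 3.58.1 (R 4.3.3). Values were log2(value + 1), the model held the group alone, the prior variance followed the mean, and p-values were adjusted by Benjamini-Hochberg over all these genes, with calls at an adjusted p under 0.05. Fold changes on that scale are understated for low genes. The steps were tested on simulated data first. Levels per kilobase used exon lengths and positions of GENCODE M21 (GRCm38). Shares and ratios were compared by exact permutation tests. Members and lists were chosen with earlier results of these data known. The text names all 10 members, Zhx1, and of each other list up to 4 genes with the smallest adjusted p in each direction. Amotl1, Vgll3, Ptpn14, Ccdc80, Wwc1, Taok1, Mink1, single cell type markers and relatives that were not tested were named after their values were seen. Alternatives covered the pseudocount, the filter, quantile and TMM-like scaling, limma without trend, the replicate number as a block and each library left out.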

Additional observations from a re-analysis of the deposited data

How the results depend on the processing

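Over 14 alternatives, Wwtr1, Tead1, Tead3, Tead4, Ccn2, Ccn1 and Amotl2 stayed lower in libraries labelled Zhx1-KO with an adjusted p under 0.05 in limma, and no member changed sign. Members called lower numbered 7 to 9. The calls of Yap1 and Tead2 depended on the setting. With quantile normalization the log2 fold changes were -0.10 (Yap1, adjusted p = 0.154) and -0.026 (Tead2, adjusted p = 0.603). Without the mean trend they stayed at -0.20 and -0.12, with adjusted p of 0.0705 and 0.148, all in limma. Tead2 also missed the threshold with a pseudocount of 5 (-0.12, adjusted p = 0.0500107) and with no filter on low values (-0.12, adjusted p = 0.0846). Leaving out 1 library gave -0.23 to -0.15 for Yap1, -0.14 to -0.10 for Tead2 and -0.86 to -0.23 for Ankrd1. In the list that holds Ankrd1 together with its muscle relatives, 0 to 1 genes were then called lower. The 1 gene was Ankrd1 itself, in the setting without Zhx1-KO 2, and not a relative. The cause of these changes was not tested.

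The replicate numbers were not found to pair the libraries (correlations of deviations 0.004, -0.069 and 0.0006 for numbers 1, 2 and 3). With the replicate block, Yap1 (-0.20, adjusted p = 0.0529) and Tead2 (-0.12, adjusted p = 0.111) missed the threshold in limma, and no other member's call changed. Differences in Tead shares, Zhx1-KO minus 46C-Ctrl, kept their direction under other lengths. By the longest transcript they were 13.98 percentage points for Tead2 and -6.74 for Tead4, and with no division by length 15.8 for Tead2, -4.45 for Tead4 and -10.2 for Tead1. Precision is limited by 3 libraries a group and, for Ankrd1, by its low counts.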

Other observations

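Relatives of the members outside the lists above were also measured. Of the Ccn family, Ccn4 (Wisp1), a matricellular target of Wnt signalling, was tested beside Ccn1 and Ccn2. Ccn4 had normalized counts of 21.2, 19.2 and 16.7 in libraries labelled Zhx1-KO and of 673, 624 and 620 in 46C-Ctrl, with no overlap (log2 fold change -5.003, adjusted p = 4.4e-07 in limma). Its log2 fold change was the lowest of the 3 tested. Ccn3 and Ccn6 had too few counts to be tested. Of the muscle relatives of Ankrd1, Ankrd23 had 131 ± 13.4 in Zhx1-KO and 130 ± 17.04 in 46C-Ctrl (SD, n = 3 each), did not pass the test, and had a log2 fold change of 0.01.

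Serum response factor and its cofactors share many targets with Yap and Tead, Ccn1 and Ccn2 among them. All 4 genes tested were lower, against 26.4% of all genes tested, and 3 of the 4 stayed so under every alternative. Srf had normalized counts of 1295, 1465 and 1280 in libraries labelled Zhx1-KO and of 2360, 1957 and 2132 in 46C-Ctrl, with no overlap (log2 fold change -0.67, adjusted p = 0.00041 in limma). The actin-linked cofactors Mrtfa and Mrtfb had log2 fold changes of -0.49 and -0.35, and Myocd, the cofactor of heart and smooth muscle, -0.31 (adjusted p = 0.0391 in limma). The call of Myocd was lost in 7 of 14 alternatives, among them 5 of the 6 that left out a library, with adjusted p from 0.0251 to 0.115 over all 14. Ccdc80, a matrix protein of the target signature, had 14.1, 21.2 and 0 normalized counts in libraries labelled Zhx1-KO against 575, 525 and 590 in 46C-Ctrl (log2 fold change -6.34, adjusted p = 0.00148 in limma), and its estimate depends on the pseudocount because 1 library is at 0.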
